A study of Homo sapiens with 4 samples.

Results

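Solute carriers are the membrane proteins that move amino acids, sugars, ions, metabolites and vitamins across the plasma membrane and the membranes of organelles. The members were selected on this mean level alone: they are the protein-coding genes whose symbol starts with SLC and a digit and whose mean over the 4 libraries was at least 5 CPM (reads of a gene relative to all gene reads of its library, the usual measure), which held for 185 of the 373 such genes in the count tables. Of the others, 140 had at least 1 read and 48 had none. RNA was sequenced from SUM159, an established triple-negative breast cancer cell line, with 1 library for each of 4 treatments: untreated, palbociclib, indisulam, and palbociclib with indisulam, here called the combination. Palbociclib is an inhibitor of CDK4 and CDK6, kinases that let cells enter S phase. Indisulam, a sulfonamide, acts as a molecular glue that brings the splicing factor RBM39 to a ubiquitin ligase, and it also lowers CDK2 activity. Per the sample labels palbociclib was given at 0.5 µM and indisulam at 2 µM over 10 days, whereas the text on the series gives 2 µM and 3 µM over 16 h with technical duplicates, so the dose and the duration are uncertain. All 4 cultures, the untreated one included, were grown in serum-containing medium with insulin and hydrocortisone. Each group was 1 library of 1 cell line, so no difference below had a replicate check, and no p-value was computed.

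The solute carriers form more than a single lineage, and family numbers group them by sequence and often by substrate. Several carriers work as a pair of chains, as SLC3A2 does with SLC7A5 in the exchange of leucine and other large neutral amino acids. The SLC25 family sits in the inner mitochondrial membrane, SLC39 proteins bring zinc and related metals into the cytosol, SLC30 proteins take zinc out of it, and SLC2 proteins carry glucose and other hexoses. In proliferating cells, glutamine, leucine and glucose carriers supply growth, and amino acid carriers are among the targets of the stress factor ATF4.

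The gene totals of the libraries lay between 12555908 and 16712174 reads, and mitochondrially encoded genes took 4.90% to 7.33% of them. The cell line markers were as the label implies: VIM, CD44, AXL and CAV1 had at least 3265 reads in every library, whereas ESR1 had 4 to 16, PGR 0 to 3, CDH1 10 to 28 and EPCAM 5 to 16. ERBB2 had 1628 to 1831 reads. The scaled counts used below are counts adjusted for the total of each library. A gene was called higher or lower when its ratio of scaled counts was at least 2-fold and a 95% interval from counting error excluded a ratio of 1. Intervals cover counting error only. As a further yardstick, the layout of 4 libraries gave 2 estimates of each drug that share no library, and their disagreement over all genes bounded the standard deviation (SD) of a single log2 ratio at 0.37 for genes of 5 to 20 CPM, 0.26 for 20 to 100 CPM and 0.28 above 100 CPM. These levels held 53, 101 and 31 members.

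The 3 members just inside the limit were SLC25A45 with a mean of 5.40 CPM, SLC37A1 with 6.01 and SLC27A5 with 6.33. Just outside it lay SLC25A35 with 4.92 CPM, SLC2A9 with 4.89 and SLC27A3 with 4.48. At 5 CPM or more in every library were 178 members, and 7 were under it in 1 to 3 libraries. By substrate, 23 members carry amino acids, 13 sugars, 3 carboxylates such as lactate, 23 metal ions, 25 other inorganic ions, 7 lipids or choline, 10 nucleosides or vitamins, 12 nucleotide sugars, 8 organic ions, amines or peptides, 22 other or unknown substrates, and 36 belong to the mitochondrial SLC25 family. The remaining 3, SLC2A4RG, SLC4A1AP and SLC7A6OS, carry the prefix but encode no carrier.

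Levels were compared between genes per length of exon, as RPKM (the CPM divided by the exon length in kilobases), in the untreated library. The exon length was that of all annotated exons of a gene joined. It can exceed the length of the transcript that is made, and RPKM is then too low. The members spanned 0.397 RPKM in SLC35E3 to 532 RPKM in SLC25A6, with a median of 5.88 RPKM. Both leading genes were mitochondrial ADP/ATP carriers, SLC25A6 at 532 RPKM and SLC25A5 at 503 RPKM, which resemble each other in sequence and have processed copies in the genome. Per length they stood above the rest of their family, in which the phosphate carrier SLC25A3 followed at 69.6 RPKM and the citrate carrier SLC25A1 at 48.9 RPKM. The joined exons span 8896 bases in SLC25A3, but 1553 in SLC25A6 and 1555 in SLC25A5. In untreated reads SLC25A3 was much closer to them, at 7774 against 10373 and 9824, so the gap in RPKM rests largely on length. The glutamine carriers SLC38A2, at 190 RPKM, and SLC1A5, at 94.7 RPKM, led the amino acid class, followed by SLC38A1 at 32.6 RPKM and SLC7A5 at 26.0 RPKM. Zinc carriers of the secretory pathway and plasma membrane led the metal class, with SLC39A7 at 74.7 RPKM and SLC39A1 at 56.2 RPKM. The glucose carriers were lower per length, SLC2A3 at 17.1 RPKM and SLC2A1 at 15.5 RPKM. So were the lactate carriers SLC16A1 at 21.9 RPKM and SLC16A3, with 9236 bases of joined exons, at 17.0 RPKM. Class medians ran from 4.46 RPKM for organic ions, amines and peptides to 17.0 RPKM for the 3 carboxylate carriers, with 11.0 RPKM for metal ions.

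**Figure D1:**
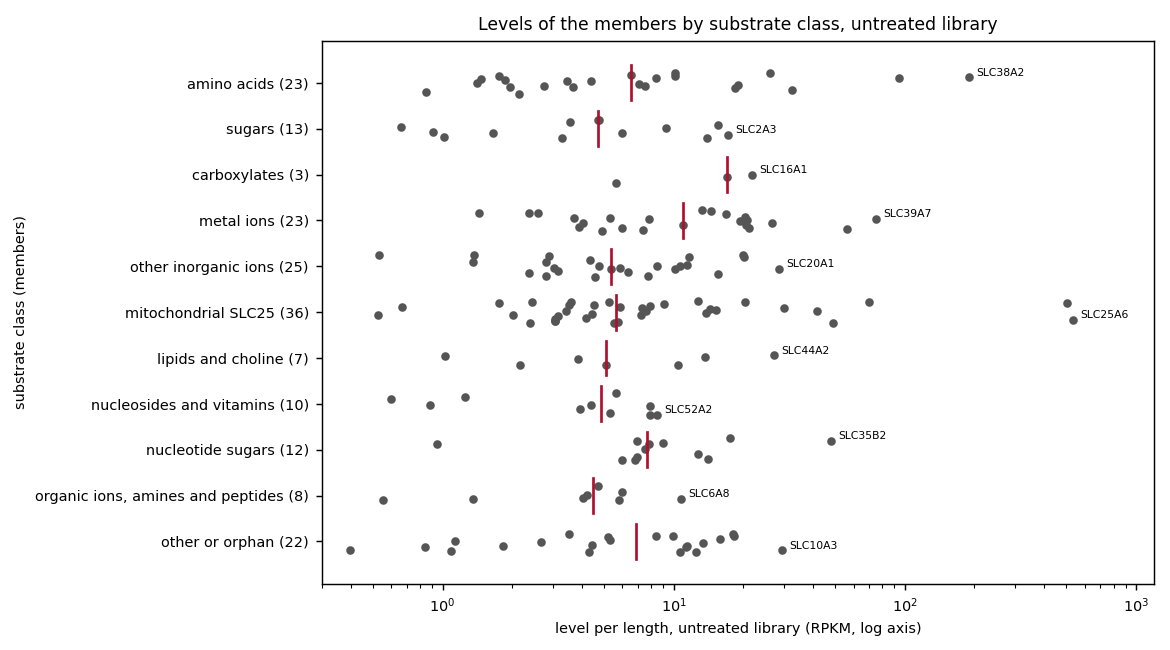
Level per length (RPKM, log axis) of the members in the untreated library, by substrate class with the number of members in brackets; each point is a gene and each red bar the class median. The 2 points near 500 RPKM are SLC25A6 at 532 and SLC25A5 at 503, and all other mitochondrial carriers lie at 69.6 RPKM or below. Length is that of all annotated exons joined, 8896 bases in SLC25A3 against 1553 in SLC25A6.

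As a whole the solute carriers took a similar, small part of the gene reads in every library. Their summed reads were 1.30% of gene reads untreated, 1.28% with palbociclib, 1.29% with indisulam and 1.35% with the combination. The makeup of this sum differed between libraries. Mitochondrial SLC25 carriers took 0.352% of gene reads untreated, 0.329% with palbociclib, 0.295% with indisulam and 0.280% with the combination. Metal ion carriers took 0.190%, 0.192%, 0.206% and 0.231% in the same order, and amino acid carriers 0.280%, 0.264%, 0.308% and 0.326%. The amino acid values turn on SLC3A2: without it the class took 0.268% untreated and 0.264% with the combination. Without the member that moved most, the SLC25 carriers, less SLC25A5, took 0.273% and 0.233%, and the metal ion carriers, less SLC39A6, took 0.180% and 0.211%. Each of the full class shares had a Wilson 95% interval narrower than the gap between untreated and combination, for example 0.348% to 0.355% against 0.277% to 0.283% for the SLC25 family. These intervals cover the counting of reads within 1 library only. They leave out the spread between cultures, so whether the shares differ beyond it was not tested. A lower share in bulk RNA can reflect fewer cells that express a gene or less of its RNA per cell, which cannot be told apart here.

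Single members moved about as often as other genes did. With palbociclib against untreated, 5 members were called higher and 7 lower, where 3.85% and 3.47% of all 11376 genes at 5 CPM or more were called and 2.70% and 3.78% of the members. With indisulam 8 members were higher and 9 lower, beside 5.88% and 4.77% of all genes. The combination had 17 members higher and 16 lower, 9.19% and 8.65% of the members, beside 9.73% and 8.76% of all genes. These 3 comparisons share the untreated library. In all, 48 of the 185 members were called in at least 1 treated library against untreated, and 87 stayed under 1.5-fold in each of the 3. These 2 counts were not taken over all genes, so they say nothing particular to the members. The median log2 ratio of the members to untreated was 0.07 with palbociclib, -0.03 with indisulam and 0.12 with the combination, and that of all genes -0.03, 0.06 and 0.04. In each comparison the shares of members called lay near those of all genes, and the account below is of single genes and classes.

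**Figure D2:**
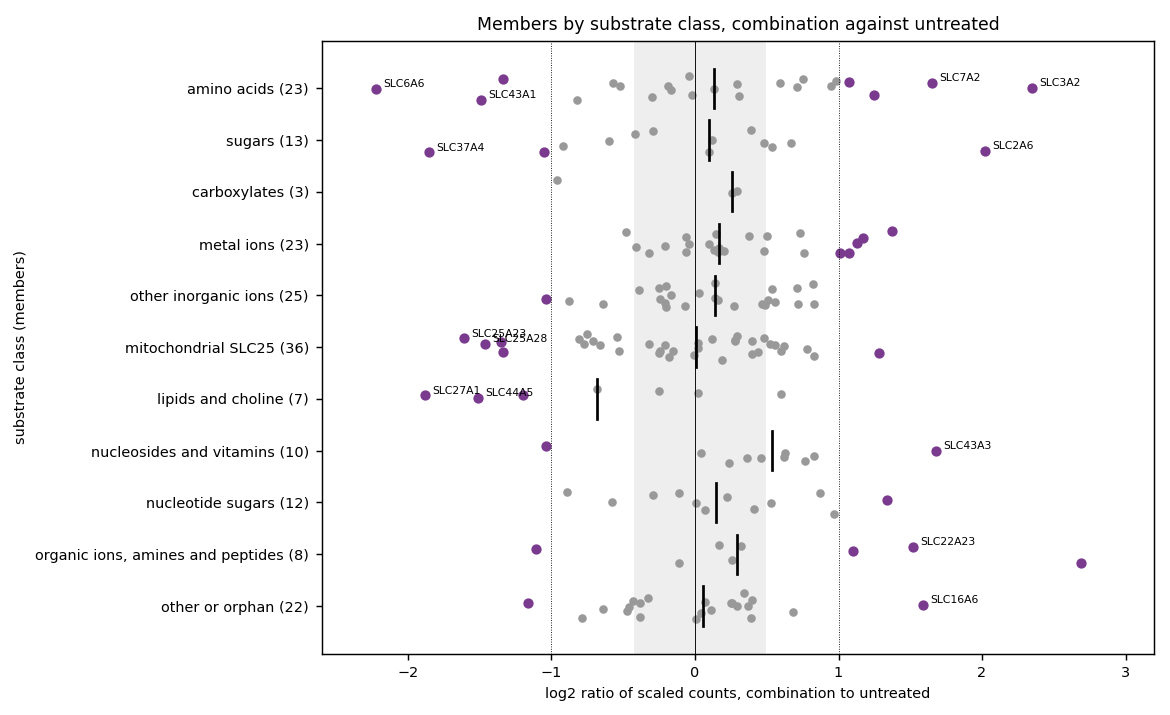
Log2 ratio of scaled counts, combination to untreated, for the members by substrate class (number of members in brackets); purple points were called, grey points were not, black bars are class medians, dotted lines mark 2-fold, and the grey band is the middle range (quartiles, -0.42 to 0.49) of all genes at 5 CPM or more. Points of the metal ion class that were called lie on the right of 0 and those of the lipid and choline class on the left, whereas called amino acid carriers lie on both sides.

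Among the 23 amino acid carriers, 4 were called higher and 3 lower with the combination against untreated, beside 9.73% and 8.76% of all genes. The class median log2 ratio was 0.13. The largest difference was in SLC3A2, the heavy chain of the 4F2 antigen (CD98) that escorts several light-chain carriers to the cell surface (ENSG00000168003, chromosome 11, 62856004 to 62888880, plus strand, GRCh38). Its scaled count was 1706 untreated, 1170 with palbociclib, 3543 with indisulam and 8671 with the combination. The combination library was the highest by far and the palbociclib library the lowest. The ratio of combination to untreated was 5.08-fold, a log2 ratio of 2.35 (95% interval 2.27 to 2.42), and that of indisulam to untreated was 1.05 (0.97 to 1.14). With TMM factors or median-of-ratios factors in place of the library total, the indisulam value was 1.00 and 0.99, so that its call was lost.

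Its best-known partner, SLC7A5, the light chain of the leucine exchanger LAT1 (ENSG00000103257, chromosome 16, 87830023 to 87869507, minus strand), had 1746 scaled counts untreated, 831 with palbociclib, 1800 with indisulam and 3656 with the combination. Palbociclib alone was thus the lowest library, and untreated and indisulam were close to each other. Without indisulam the log2 ratio of palbociclib was -1.07 (-1.20 to -0.94), and in the presence of indisulam, as combination against indisulam, it was 1.02 (0.95 to 1.10). SLC7A5 was the only member called in opposite directions in the 2 estimates of palbociclib, as were 14 of the 11376 genes. In those of indisulam no member had opposite calls, beside 13 of the 11376 genes, so few that none among the members says nothing particular to them. Reads of SLC7A5 are shared with processed or partial copies elsewhere in the genome, so its counts are uncertain to that extent.

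Other carriers of these substrates had other orders of libraries. SLC7A11, the cystine carrier that also pairs with SLC3A2, had 499, 323, 596 and 443 scaled counts in the order untreated, palbociclib, indisulam and combination, and was called in no comparison. SLC43A1 and SLC43A2, leucine carriers that need no heavy chain, differed from each other. SLC43A1 had 371, 272, 196 and 131 scaled counts, lowest with the combination, for a log2 ratio of -1.49 (-1.78 to -1.20) to untreated. In SLC43A2 the palbociclib library stood alone, with 422 scaled counts against 127 untreated, 123 with indisulam and 124 with the combination, a log2 ratio of 1.73 (1.42 to 2.03) for palbociclib and -0.04 (-0.40 to 0.33) for the combination.

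The upstream sequences of SLC3A2 and SLC7A5 are shown because these partners were both called higher with the combination, and those of SLC25A13 and SLC39A8 because they were among the higher members that held the E-box marked here. Each is the stretch before a RefSeq start (GRCh38.p14), cut where an annotated exon begins, read 5′ to 3′ on the strand of the gene, and capitals mark the E-box CACGTG, the hexamer read by MYC and TFE factors. The positions are chr11:62881454-62881697 on the plus strand for SLC3A2, which is upstream of its shorter transcripts and lies within the longer ones, chr16:87869508-87869757 on the minus strand for SLC7A5, chr7:96322148-96322348 on the minus strand for SLC25A13 and chr4:102345532-102345685 on the minus strand for SLC39A8. The SLC39A8 stretch also lies within its gene as annotated, 102251080 to 102431258, before an internal start.
SLC3A2: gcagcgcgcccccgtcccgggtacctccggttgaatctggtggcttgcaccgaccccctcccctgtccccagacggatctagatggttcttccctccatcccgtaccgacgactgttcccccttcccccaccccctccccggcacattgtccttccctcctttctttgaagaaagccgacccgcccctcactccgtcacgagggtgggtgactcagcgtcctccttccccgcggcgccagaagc
SLC7A5: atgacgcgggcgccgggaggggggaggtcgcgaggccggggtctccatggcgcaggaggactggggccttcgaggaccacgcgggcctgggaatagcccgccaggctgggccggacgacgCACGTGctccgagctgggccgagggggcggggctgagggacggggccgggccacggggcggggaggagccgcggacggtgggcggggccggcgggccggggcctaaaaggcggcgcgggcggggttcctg
SLC25A13: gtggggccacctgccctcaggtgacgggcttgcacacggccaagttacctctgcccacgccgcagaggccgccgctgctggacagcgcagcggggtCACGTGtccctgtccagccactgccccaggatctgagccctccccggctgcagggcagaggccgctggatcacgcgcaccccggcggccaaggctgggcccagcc
SLC39A8: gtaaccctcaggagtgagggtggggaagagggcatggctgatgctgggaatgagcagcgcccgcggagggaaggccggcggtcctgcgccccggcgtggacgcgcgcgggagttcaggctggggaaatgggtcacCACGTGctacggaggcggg
The SLC3A2 stretch held no E-box and the other 3 held 1 each. A RefSeq promoter was matched for 154 of the 185 members. Within 250 bases before any listed start, searched on both strands, 26 of the 154 (16.9%) held CACGTG, as did 7.73% of all 27305 genes with a promoter and 11.2% of the 9148 of these at 5 CPM or more. The C/EBP-ATF response element TGATGNAA was in 5 of the 154 (3.25%), among them SLC1A5 and SLC1A3, beside 3.89% of all and 2.39% of the expressed genes. The metal response element TGCNCNC was in 99 (64.3%), beside 53.0% and 64.0%. None of the 25 matched members called with the combination held TGATGNAA, and 6 held CACGTG, SLC7A5, SLC25A13, SLC39A8 and SLC36A1 among the higher and SLC43A1 and SLC9A5 among the lower ones. Sites of different motifs may share bases, and a match is a description of the sequence only.

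The highest ratio of indisulam to untreated in the amino acid class was in a cationic carrier. SLC7A2 (CAT2), which carries arginine and lysine, had 792 scaled counts untreated, 342 with palbociclib, 5112 with indisulam and 2490 with the combination. Both libraries with indisulam lay above both without it, and each library with palbociclib lay below its counterpart without it. In log2, indisulam exceeded untreated by 2.69 (2.58 to 2.80) and the combination exceeded palbociclib by 2.86 (2.69 to 3.03). For palbociclib it was -1.21 (-1.40 to -1.02) against untreated and -1.04 (-1.10 to -0.97) against indisulam. The related SLC7A1 (CAT1) had 1098, 718, 1739 and 1801 scaled counts and was called in the comparison of combination with palbociclib, at 1.33 (1.20 to 1.46).

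The lowest ratio of all members with the combination was in the taurine carrier. SLC6A6, which takes up taurine and beta-alanine (ENSG00000131389, chromosome 3, 14402576 to 14489349, plus strand), had 2137 scaled counts untreated, 1236 with palbociclib, 870 with indisulam and 457 with the combination. Every treated library lay below the untreated one, and the combination lay lowest, 4.67-fold down, at a log2 ratio of -2.22 (-2.37 to -2.08). The gene overlaps GRIP2 on the opposite strand. SLC1A5 (ASCT2), the main glutamine carrier of many tumor cells, had 4444, 2171, 2748 and 2524 scaled counts, and was called with palbociclib at -1.03 (-1.11 to -0.95), a call that upper-quartile factors ended at -0.99. SLC38A2 (SNAT2), the amino acid carrier with the highest level, kept close to its untreated count, at 17388, 18241, 17122 and 14100. ATF4 itself, a factor that switches on several of these carriers, had 5723, 3834, 5514 and 3830 scaled counts and was called in no comparison; its protein was not measured.

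Glutamate and neutral amino acid carriers of the SLC1 family showed further departures. SLC1A3 (EAAT1) was highest with palbociclib, at 1757 scaled counts, against 555 untreated, 860 with indisulam and 1097 with the combination, and its log2 ratio with palbociclib was 1.66 (1.52 to 1.81). SLC1A1 (EAAT3) had 469, 525, 575 and 315, lowest with the combination. SLC1A4 (ASCT1), which carries serine and alanine, was lower with either drug alone, at 98.7 and 88.5 scaled counts, than untreated, at 192, or with the combination, at 168. SLC36A1 (PAT1), a proton-coupled carrier of lysosomes, was highest with the combination, at 346 scaled counts against 145 untreated, and SLC38A6 was lowest there, at 105 against 268.

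**Figure D3:**
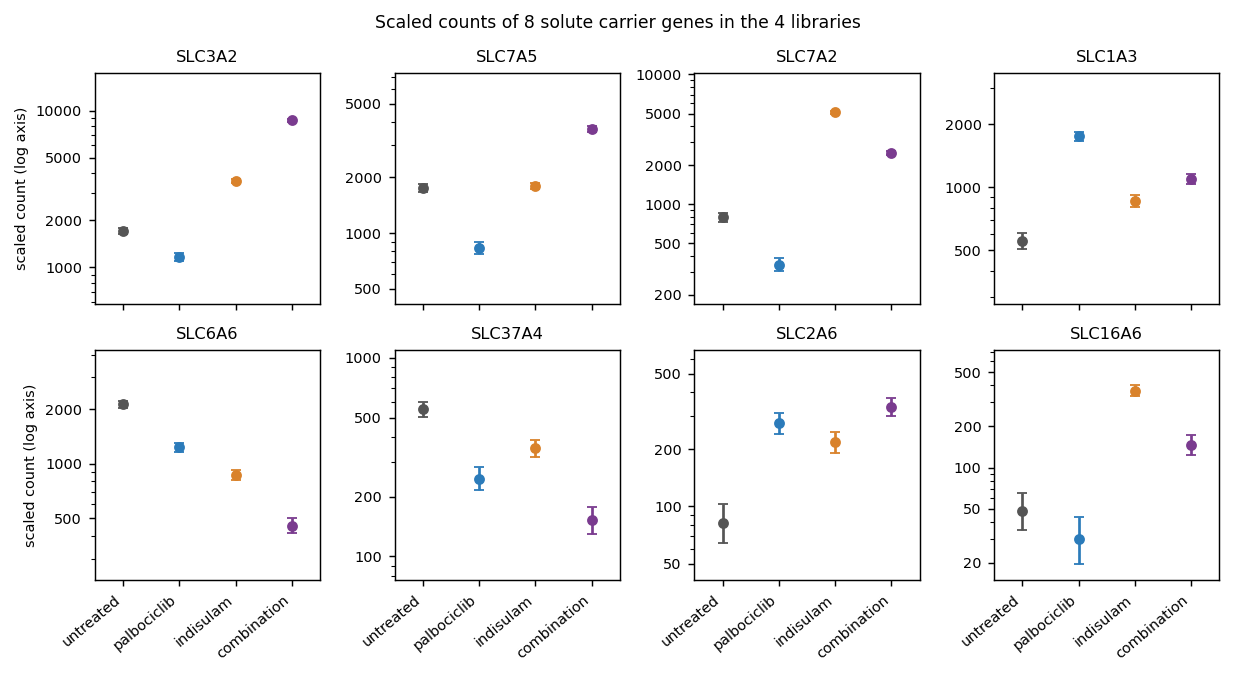
Scaled counts (log axis) of 8 members in the 4 libraries, 1 point per library with the exact Poisson 95% interval of its count; there are no replicates. SLC3A2 is highest with the combination, SLC1A3 with palbociclib, SLC7A2 and SLC16A6 with indisulam alone, SLC6A6 and SLC37A4 are lowest with the combination, and SLC7A5 lies under its untreated count with palbociclib and above it with the combination.

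Of the 13 sugar carriers, 1 was higher and 2 were lower with the combination, beside 9.73% and 8.76% of all genes. SLC2A6 (GLUT6), a hexose carrier of lysosomal membranes, had 81.9 scaled counts untreated, 274 with palbociclib, 217 with indisulam and 334 with the combination. All treated libraries lay above the untreated one, and the combination was 4.05-fold higher, at a log2 ratio of 2.02 (1.65 to 2.38). SLC37A4, which brings glucose-6-phosphate into the endoplasmic reticulum for conversion to glucose, had 550, 246, 350 and 152 scaled counts, and was lower in both estimates of palbociclib, at -1.15 (-1.38 to -0.93) and -1.20 (-1.47 to -0.93) in log2. SLC37A4 overlaps TRAPPC4 on the opposite strand. SLC37A2, a sugar phosphate carrier, had 823, 822, 565 and 398 scaled counts and was lower with the combination, at -1.05 (-1.22 to -0.87).

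SLC2A1 (GLUT1) had 1441, 1550, 1806 and 1888 scaled counts and was called nowhere. SLC2A3 (GLUT3) was lower with palbociclib, at 829 scaled counts against 1745 untreated, 1974 with indisulam and 1152 with the combination, a log2 ratio of -1.07 (-1.20 to -0.95). SLC2A14 is nearly identical to SLC2A3, so reads shared by both were lost to the count. TXNIP, the arrestin that takes glucose carriers off the surface and whose transcript is known to follow glucose supply, had 44313 scaled counts untreated, 19574 with palbociclib, 10146 with indisulam and 5309 with the combination. The untreated library was the highest and the combination the lowest, with a log2 ratio of -3.06 (-3.10 to -3.02) with the combination. SLC16A1 and SLC16A3, the proton-linked lactate carriers, stayed within 1.23-fold and 1.19-fold of untreated with the combination, and their chaperone BSG had 8003 to 9281 scaled counts in the 4 libraries. SLC16A7 (MCT2), a pyruvate and lactate carrier, was lower with palbociclib, at 436 scaled counts against 1087 untreated.

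Of the 23 metal ion carriers, 5 were called higher and 0 lower with the combination, beside 9.73% and 8.76% of all genes. The class median log2 ratio was 0.17. The middle range (quartiles) of the members was -0.05 to 0.75, which includes 0 and the median of all genes, 0.04. Of the 23, 16 lay above 0, as did 52.3% of all genes. The 5 were the zinc importers SLC39A6, SLC39A8 and SLC39A3, the Golgi zinc carrier SLC30A6 and the copper carrier SLC31A2. All but SLC31A2, at 2.59-fold, lay between 2.02-fold and 2.24-fold, close to the threshold. SLC39A6 (ZIP6) had 1383 scaled counts untreated, 2113 with palbociclib, 1635 with indisulam and 2794 with the combination. Its log2 ratio of 1.01 became 0.98 with TMM, upper-quartile or median-of-ratios factors, so that its call was lost and 4 metal ion carriers were left. SLC39A8 (ZIP8), which also carries manganese and iron, had 936, 1077, 1756 and 2102, so that both libraries with indisulam were the higher ones. SLC31A2 (CTR2) had 208, 262, 308 and 539, and overlaps FKBP15 on the opposite strand. SLC39A10 (ZIP10), which pairs with SLC39A6, was called with indisulam alone, at 4611 scaled counts against 2057 untreated, a log2 ratio of 1.16 (1.09 to 1.24).

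Zinc-responsive genes and other metal genes varied among themselves. SLC30A1 (ZnT1), the zinc exporter switched on by zinc through MTF1, had 440, 463, 623 and 489 scaled counts and was called nowhere. The metallothionein MT2A had 2567 scaled counts untreated, 862 with palbociclib, 1663 with indisulam and 2747 with the combination, lowest with palbociclib at a log2 ratio of -1.57. SLC31A1 (CTR1), the copper importer of the cell surface, had 1214, 968, 1038 and 1715 and departed upward from additivity. Of the iron genes, the transferrin receptor TFRC had 3124 and 3678 scaled counts in the libraries without indisulam and 8355 and 9997 in those with it, while the iron exporter SLC40A1 was no member, with 7 to 47 reads. SLC41A2, a magnesium carrier, was lower with indisulam, at 160 scaled counts against 324 untreated, a call that a pseudocount of 5 ended.

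Of the 25 carriers of other inorganic ions, 0 were called higher and 1 was called lower with the combination, beside 9.73% and 8.76% of all genes. The lower one was the proton exchanger SLC9A5, at 170 scaled counts against 350 untreated. SLC9A9, an endosomal sodium-proton exchanger, had 360 scaled counts untreated, 396 with palbociclib, 126 with indisulam and 195 with the combination, so that both libraries with indisulam were low. Its log2 ratio was -1.51 (-1.79 to -1.23) against untreated and -1.02 (-1.27 to -0.77) for combination against palbociclib. The phosphate importer SLC20A1 had 2208, 2131, 3012 and 3205 scaled counts and the chloride importer SLC12A2 (NKCC1) had 205, 271, 190 and 284, with no call in either. STK39, a kinase that phosphorylates SLC12 carriers, had 468 and 576 scaled counts without indisulam and 1153 and 1403 with it.

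In the mitochondrial SLC25 family, 1 of 36 members was higher and 4 were lower with the combination, beside 9.73% and 8.76% of all genes. The class median log2 ratio was 0.00. The 4 were SLC25A23, SLC25A28, SLC25A1 and SLC25A42. SLC25A23, which exchanges ATP-magnesium for phosphate, had 992 scaled counts untreated, 748 with palbociclib, 511 with indisulam and 324 with the combination, a log2 ratio of -1.61 (-1.80 to -1.43). SLC25A1, the citrate carrier that supplies cytosolic acetyl groups for lipid synthesis, had 1377, 990, 798 and 540, at -1.35 (-1.49 to -1.20). The iron carrier SLC25A28 (mitoferrin 2) had 610, 368, 365 and 222 and the coenzyme A carrier SLC25A42 had 237, 216, 147 and 93.2. That untreated lay above the combination follows from how these 4 were chosen. Both single-drug libraries lay between them in each of the 4. In SLC25A42 the interval of palbociclib against untreated included 0, at -0.13 (-0.41 to 0.15).

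SLC25A13 (citrin), the aspartate and glutamate carrier of the malate-aspartate shuttle, went the other way, with 160 scaled counts untreated, 336 with palbociclib, 262 with indisulam and 391 with the combination, at 1.28 (1.01 to 1.56). SLC25A20, which brings acylcarnitines in for oxidation, was lowest with indisulam, at 81.7 scaled counts against 193 untreated, 288 with palbociclib and 170 with the combination. SLC25A11, the oxoglutarate carrier, was lower with indisulam too, at 225 against 480, and overlaps RNF167 on the opposite strand. The most abundant members of the family were not called. SLC25A5 had 11016 scaled counts untreated, 7675 with palbociclib, 6355 with indisulam and 6557 with the combination, at most 1.73-fold apart, and SLC25A3 had 8718, 7238, 7902 and 6015. MPC1, a subunit of the mitochondrial pyruvate carrier outside the SLC25 family, was lower with indisulam, at 172 scaled counts against 380.

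The 7 lipid and choline carriers had 0 called higher and 3 called lower with the combination, beside 9.73% and 8.76% of all genes. Their median log2 ratio was -0.68, and the members ran from -1.88 in SLC27A1 to 0.60 in SLC27A4. Of the 7, 2 lay above 0 and 5 below. SLC27A1, which takes up and activates long-chain fatty acids, had 446 scaled counts untreated, 362 with palbociclib, 218 with indisulam and 121 with the combination, a log2 ratio of -1.88 (-2.17 to -1.59). SLC44A2, a choline carrier, had 1890, 1403, 1078 and 820, at -1.20 (-1.32 to -1.08), and SLC44A5, of the same family, had 192, 311, 122 and 66.7. SLC44A1, the other abundant choline carrier, was near its untreated count with the combination, at 2409 against 2380. SLC27A2, a fatty acid activating enzyme of the same family as SLC27A1, was lower with indisulam alone, at 196 scaled counts against 410.

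SLC16A6 (MCT7), of the family of the lactate carriers, was highest with indisulam, with 48.2 scaled counts untreated, 29.9 with palbociclib, 366 with indisulam and 147 with the combination. It overlaps ARSG on the opposite strand. SLC43A3, a purine nucleobase carrier, had 38.1, 49.9, 147 and 124, with both libraries that held indisulam high, at 1.92 (1.40 to 2.45) and 1.30 (0.81 to 1.79) in log2.

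Smaller classes held a few more. SLC22A23 had 69.5 scaled counts untreated, 136 with palbociclib, 198 with indisulam and 201 with the combination, and SLC15A4, a lysosomal carrier of histidine and peptides, had 325, 410, 704 and 697. SLC35B1, which brings ATP into the endoplasmic reticulum, was highest with the combination, at 1579 against 621 untreated, a log2 ratio of 1.34 (1.20 to 1.48). It was the only member called in its class of 12, where 9.73% of all genes were called higher with the combination. SLC29A3 (ENT3), a lysosomal nucleoside carrier, had 77.4, 156, 63.2 and 132, high in both libraries with palbociclib. SLC19A2, a thiamine carrier, was called in the comparison of combination with palbociclib, at 373 against 170. Lower with the combination were the folate carrier SLC46A1, at 289 scaled counts against 595 untreated, the heme carrier SLC48A1, at 353 against 792, and SLC22A18, at 137 against 298. Of the carriers in the senescence lists that the study used, SLC9A7, SLC10A3 and SLC16A3 were members and were called nowhere, and SLC16A14 was no member, with 0 to 17 reads.

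The question of what each drug did in the presence of the other was addressed by the remaining comparisons. Adding indisulam to palbociclib, as combination against palbociclib, had 10 members higher and 10 lower, beside 6.69% and 5.58% of all genes. TMM factors gave 8 higher and 13 lower. Adding palbociclib to indisulam had 6 higher and 3 lower, beside 2.58% and 2.21%. For palbociclib, 1 member was called higher in both of its estimates, SLC29A3, beside 1.15% of all genes, and 2 were called lower in both, SLC37A4 and SLC7A2, beside 0.923%. The SLC29A3 ratio to untreated was 0.97 with a pseudocount of 5, so its call was lost there. Without palbociclib SLC29A3 lay next to the 5 CPM limit, at 5.5 CPM untreated and 4.49 CPM with indisulam. Its place among the members thus leans on the libraries where it was high, at 11.1 CPM with palbociclib and 9.4 CPM with the combination. For indisulam, 4 were higher in both, SLC7A2, SLC16A6, SLC3A2 and SLC43A3, beside 3.25% of all genes, and 3 were lower in both, SLC6A6, SLC27A1 and SLC9A9, beside 2.67%. Of the 4 higher ones, SLC16A6 and SLC43A3 were under 5 CPM in both libraries without indisulam, SLC16A6 at 3.42 and 2.13 CPM and SLC43A3 at 2.71 and 3.55 CPM, so they passed the limit on the mean only through the libraries where they were high.

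**Figure D4:**
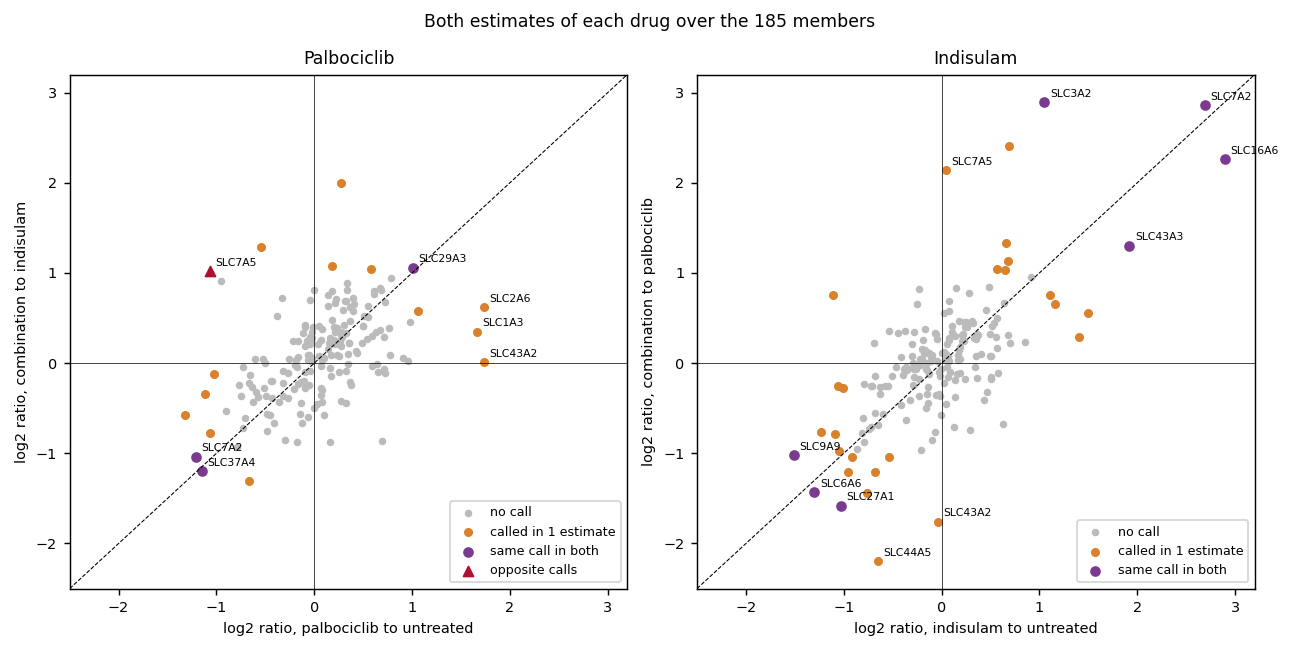
Both estimates of each drug for the 185 members, as log2 ratios of scaled counts: palbociclib (left) against untreated on the x axis and combination against indisulam on the y axis, and indisulam (right) against untreated and combination against palbociclib; the dashed line marks equal values. SLC7A5 is the red triangle, at -1.07 and 1.02, and SLC7A2 and SLC16A6 lie farthest to the upper right for indisulam, at 2.69 and 2.86 and at 2.90 and 2.26.

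Where the 2 estimates differ, the combination departs from the sum of the single drugs on the log2 scale. This departure was called in 10 members, 5 upward beside 2.53% of all genes and 5 downward beside 2.58%. Among the upward ones were SLC7A5 at 2.09 (1.95 to 2.24), SLC1A4 at 1.87 (1.36 to 2.37), SLC3A2 at 1.83 (1.71 to 1.96) and SLC31A1 at 1.05 (0.88 to 1.22). Downward were SLC43A2 at -1.72 (-2.18 to -1.26), SLC44A5 at -1.56 (-2.05 to -1.06), SLC1A3 at -1.31 (-1.5 to -1.12), SLC2A6 at -1.11 (-1.55 to -0.67) and SLC1A1 at -1.03 (-1.30 to -0.76). The amino acid class held 3 of the upward and 3 of the downward members. SLC2A6 was higher in every treated library, and the combination exceeded palbociclib by 0.29 and indisulam by 0.62. SLC6A6, the carrier with the lowest ratio, was not called for a departure, at -0.14 (-0.33 to 0.05).

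Among the 25 partner and other transport genes listed beside the carriers, 21 were at 5 CPM or more. With the combination against untreated, STK39 and TFRC were higher, beside 9.73% of all genes. TXNIP and SLCO4A1, an organic anion carrier outside the SLC symbols counted here, were lower, beside 8.76%. With palbociclib 0 were higher and 2, TXNIP and MT2A, lower, beside 3.85% and 3.47% of all genes. With indisulam 2 were higher and 3, TXNIP, MT1X and MPC1, lower, beside 5.88% and 4.77%. A list this short, chosen with earlier results known, cannot be told apart from these shares.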

How the data were processed

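The 4 libraries, 1 per group, were grouped by the treatment labels. The authors prepared stranded mRNA libraries. Per the labels the build was GRCh38, and the submitters' processing notes name TopHat2 2.1 and HTSeq. What the authors deposited is, for each library, a table of raw read counts by Ensembl gene. The strand setting of the counting and the annotation release are not given in the sources used here. Reads that aligned to more than 1 place (6.46% to 6.84%) or to overlapping genes (2.41% to 2.63%) were tallied apart and not counted, which lowers genes with near-identical copies. Exons shared with another gene on the same strand may lose reads in this way. Called members with such an overlap include SLC43A3, SLC39A3, SLC29A3, SLC39A6, SLC39A8, SLC38A6 and SLC9A5. The floor of 3 counts corresponded to 0.180 to 0.239 CPM.

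Counts were divided by the relative total of each library, the size factor of the study's methods, and log2 ratios were taken with a pseudocount of 1 scaled count over all 60279 genes. The call needed a ratio of 2-fold and a 95% Poisson interval on the log scale that excluded 1. Gene types, positions and exon lengths came from GENCODE 44 (GRCh38). The call rule was run on simulated counts with Poisson error only and no spread between libraries. Such a run checks the computation and cannot show how the calls hold in these data. Alternatives were TMM and upper-quartile factors (edgeR 4.0.16), median-of-ratios factors (DESeq2 1.42.0), the total without mitochondrially encoded genes, 1.5-fold, a pseudocount of 5, an exact conditional interval, a limit of 10 CPM and no filter.

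The members, their classes, the partner list and the motifs were chosen with earlier results of these data known. SLC7A6OS and SLC2A4RG were moved out of the carrier classes after their values were seen. Named by rule were, in each comparison, up to 8 called members in each direction, members called in both estimates of a drug or off additivity, the members with the highest level per length of each class, textbook carriers, carriers of the study's senescence lists and members next to the 5 CPM limit; not every gene so named is reported here. SLC9A5, SLC22A18, SLC30A6, SLC35B1, SLC36A1, SLC38A1, SLC39A3, SLC39A6, SLC39A8, SLC41A2, SLC46A1 and SLC48A1 were named outside the rule, after their values were seen.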

Additional observations from a re-analysis of the deposited data

Results flagged for a closer look

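SLC7A5 was singled out because palbociclib had opposite calls in the absence and the presence of indisulam. Its scaled count was 1746 untreated and 831 with palbociclib, but 1800 with indisulam and 3656 with the combination. The departure from additivity was 2.09 on the log2 scale (95% counting interval 1.95 to 2.24), and the robust SD of the same departure over all genes at 100 CPM or more was 0.40. With 1 library a group, the difference between the 2 estimates was not tested against replicates. SLC7A5 was the only one of 185 members with such opposite calls, which 14 of all 11376 genes had for palbociclib. Its heavy chain SLC3A2 departed in the same direction, by 1.83, but its 2 palbociclib values, -0.54 and 1.29, were not both called.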

How the results depend on the processing

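No difference has a replicate, the dose and time are uncertain, and counting intervals leave out the spread between cultures, so ratios close to 2-fold may fall on either side of it. The 13 counts of members were within 1.5 times the reported ones under TMM, upper-quartile and median-of-ratios factors, the total without mitochondrially encoded genes, a pseudocount of 5, the exact interval and the limit of 10 CPM. At 1.5-fold more members passed: 26 higher and 21 lower with palbociclib, 18 and 30 with indisulam, 41 and 32 with the combination, 22 and 27 for combination against palbociclib, 31 and 15 for combination against indisulam, 14 and 30 with the same call in both estimates of palbociclib and of indisulam, and 33 off additivity. With no filter, which adds 140 genes of low counts, these numbers were 12 and 14, 15 and 23, 30 and 28, 21 and 19, 20 and 8, 5 and 15, and 24. Both settings move a count by their construction, a lower limit and more genes. The shares of all genes called were not computed at these 2 settings, so the counts are not set against a background. All 360 class medians tried stayed within a binomial interval drawn from the order of the members, which is wide in small classes. For organic ions, amines and peptides it ran from -1.114 to 2.689 with the combination against untreated. The medians at 1.5-fold and with the exact interval, 40 each, could not move, because these settings leave the ratios as they are. The lipid and choline class was not among those tried. Of 707 repeats of the calls of single members, the 101 at 1.5-fold could not fail, because a call at 2-fold passes the lower limit. None reversed, but a reversal would take a log2 shift of at least 1, so this is no check. The call was lost in 14 repeats. They concern SLC3A2, SLC1A5, SLC29A3, SLC39A6 and SLC41A2, given beside the gene, and SLC31A2 and SLC35B1 for combination against palbociclib, at 0.96 to 0.98 and 0.95 to 0.97 under TMM, upper-quartile and median-of-ratios factors. Upper-quartile factors changed the split with palbociclib from 5 higher and 7 lower to 7 and 6, and all 4 scalings kept the median of all genes within 0.06 of 0. No paired analysis was possible because each group has 1 library.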
